A study of Mus musculus with 4 samples.

Results

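Mouse blood stem cells are recognised by a small set of transcripts, and 10 of them are described here in bone marrow cells in which the histone methyltransferases MLL3 and MLL4 were deleted or altered. The genes are Hlf, Mecom, Procr, Mllt3, Fgd5, Ly6a, Slamf1, Mycn, Prdm16 and Esam, and they were chosen by name. They are 10 of the 32285 genes in the files. The cells came from mice 10 weeks after transplantation and were sorted as CD45.2+, a form of the pan-leukocyte antigen by which donor and host cells can be separated. Kit, a receptor carried by stem and progenitor cells, was used to sort 3 single-cell libraries: a control, one labelled Mll3/4 deleted and one labelled Mll3/4SI. Another control library held B220lo cells, B220 being a surface protein of the B lineage, so there were 4 libraries, 1 per group. Mll3 and Mll4 are other names of Kmt2c and Kmt2d. The labels do not expand SI, do not give the age of the mice, the way the genes were deleted or the alleles of the controls, and do not say how many mice entered a library. With 1 library a group, no difference was tested, and every interval below covers counting error only.

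A stem cell keeps its identity through transcription factors that hold back differentiation while it renews. Hlf, Mecom, Prdm16 and Mycn encode such regulators, and Mllt3 encodes a reader of acylated histones that works with the transcription elongation machinery. Procr, Ly6a (also called Sca-1), Slamf1 (CD150) and Esam encode surface proteins by which stem cells are sorted, and Fgd5 encodes an exchange factor for a small GTPase. MLL3 and MLL4 are large proteins that act at enhancers, where they carry both a methyltransferase domain and docking surfaces for other regulators.

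After filtering, 11051 control Kit+, 13747 deleted, 11501 SI and 15380 control B220lo cells were kept, with median depths of 11594, 6507, 11969 and 3246 UMIs (unique molecular identifiers, the counted molecules). Pairs of libraries shared between 214 and 345 barcodes. Levels are in CPM, the UMI count of a gene scaled to 1e+06 UMIs of the same cells. The sum of Y-linked genes was 148 CPM in deleted cells but 0.151 CPM in Kit+ controls, 0.186 CPM in SI and 0.842 CPM in B220lo cells. Sex therefore differs along with genotype, and their parts cannot be told apart. The labels do not say which exons were deleted and the reads count transcript 5′ ends, so the targeted genes check nothing here: Kmt2d stood at 24.3, 11.3 and 19.0 CPM in gated control, deleted and SI cells, and Kmt2c at 75.3, 52.0 and 67.9 CPM.

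Members were followed in all kept cells and in a gate for early progenitors. The gate took cells with at least 1 UMI of Cd34, a progenitor antigen, fewer than 5 of Elane (neutrophil elastase), and fewer than 3 each of Car1 (an erythroid carbonic anhydrase) and Cd79a (a B-cell receptor subunit). It held 2622 control cells, 23.7% of those kept, 146 deleted cells, 1.06%, and 4952 SI cells, 43.1%. A stricter gate also asked for fewer than 5 UMIs of Mpo (myeloperoxidase), fewer than 3 each of Cpa3 (a mast-cell carboxypeptidase), Pf4 (a platelet chemokine) and Klf1 (an erythroid factor), and none of Ebf1 (a B-cell factor). It held 1060 control, 59 deleted and 923 SI cells. Kit itself stood at 298, 300 and 306 CPM in the gated control, deleted and SI cells. Endothelial cells also transcribe Esam and Procr, and their 8 markers summed to 134, 103 and 99.3 CPM in those gates. Of them 8 were detected in control, 5 in deleted and 7 in SI gated cells. The defining marker Cdh5 was at 0 in gated deleted and SI cells, and Kdr and Stab2 were at 0 in deleted cells.

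RefSeq tables of GRCm38.p6 held start regions for 8 of the 10 members. The regions of Hlf, Mecom and Mllt3 are shown because Hlf kept most of its UMIs in the gate, Mecom differed from control in opposite directions in the mutant libraries, and Mllt3 differed mainly outside the gate. Each runs 5′ to 3′ on the gene's strand and covers the bases before the RefSeq start, trimmed where an annotated exon begins, with matches to a searched motif in capitals.
Hlf: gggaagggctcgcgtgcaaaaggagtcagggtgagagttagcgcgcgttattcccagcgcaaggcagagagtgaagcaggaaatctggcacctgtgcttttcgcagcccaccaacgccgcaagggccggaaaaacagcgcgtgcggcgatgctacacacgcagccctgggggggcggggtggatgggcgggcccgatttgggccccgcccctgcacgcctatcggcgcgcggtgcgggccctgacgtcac
Mecom: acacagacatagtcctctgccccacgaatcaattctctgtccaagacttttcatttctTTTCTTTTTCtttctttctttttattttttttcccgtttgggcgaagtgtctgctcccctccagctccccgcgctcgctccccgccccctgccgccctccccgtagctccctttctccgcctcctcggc
Mllt3: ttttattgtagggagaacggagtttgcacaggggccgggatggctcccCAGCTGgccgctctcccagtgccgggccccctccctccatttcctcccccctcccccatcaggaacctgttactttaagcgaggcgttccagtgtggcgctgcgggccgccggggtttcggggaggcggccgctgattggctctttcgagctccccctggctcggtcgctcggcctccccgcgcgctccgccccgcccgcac
The Hlf stretch is chr11:90390918-90391167 on the minus strand, where the gene lies at chr11:90336536-90390895. The Mecom stretch is chr3:30509823-30510009 on the minus strand, inside the longest annotated gene body at chr3:29951296-30548008. The Mllt3 stretch is chr4:88033408-88033657 on the minus strand, upstream of the gene at chr4:87769925-88033364. In the 250 bases before each of the 10 member starts, on both strands, no match was found to 5 motifs: AGATAA for GATA factors, CCGGAAG for ETS factors, TGTGGT for RUNX factors, TTACGTAA for PAR bZIP factors such as HLF, and TTCNNNGAA, the interferon-related GAS site. Over all 32851 start regions of this length, 9.99%, 6.91%, 14.0%, 0.113% and 7.02% held them, in that order. The E-box CAGCTG, held by 13.001% of all regions, was found in Procr and Mllt3. The interferon-stimulated response element was found once, in Mecom on the opposite strand, against 2.98% of all regions. These are matches of letters only.

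In control Kit+ cells most members lay in the gate, but not all. The gate held 58.3% of Hlf UMIs, 66.2% of Ly6a, 65.8% of Procr, 56.0% of Fgd5, 53.9% of Mecom and 53.9% of Esam, from 23.7% of the cells. Mycn and Prdm16 had less in it, with 41.2% and 42.8% of their UMIs. Mllt3 and Slamf1 went against the group's name: 56.5% and 52.7% of their UMIs came from cells with 3 or more Car1 UMIs, and 15.9% and 18.2% from the gate. For these shares each cell was counted once, so the 2587 Car1 cells leave out those already taken by Cd79a or Elane UMIs. Mycn, Mecom and Esam were also high in cells with 3 or more Pf4 UMIs, at 80.8, 81.1 and 35.5 CPM, against 27.0, 106 and 18.2 CPM in the gate.

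Hlf and Mecom were detected in more cells of the gate than of the erythroid cells, while Mllt3 and Slamf1 were detected in fewer. Thinned to 5000 UMIs each, 34.4% of gated control cells held a Hlf UMI and 32.3% a Mecom UMI, against 2.75% and 3.34% of cells with 3 or more Car1 UMIs. Median depths before thinning were 7787 and 15018 UMIs. The same shares without thinning were 47.3% and 45.1% in the gate and 7.21% and 7.61% in the Car1 cells. Mllt3 was found in 18.0% of gated and 30.8% of Car1 cells at 5000 UMIs, and Slamf1 in 3.61% and 7.28%. Fgd5 was the least detected, in 1.78% of gated control cells at 5000 UMIs.

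**Figure D1:**
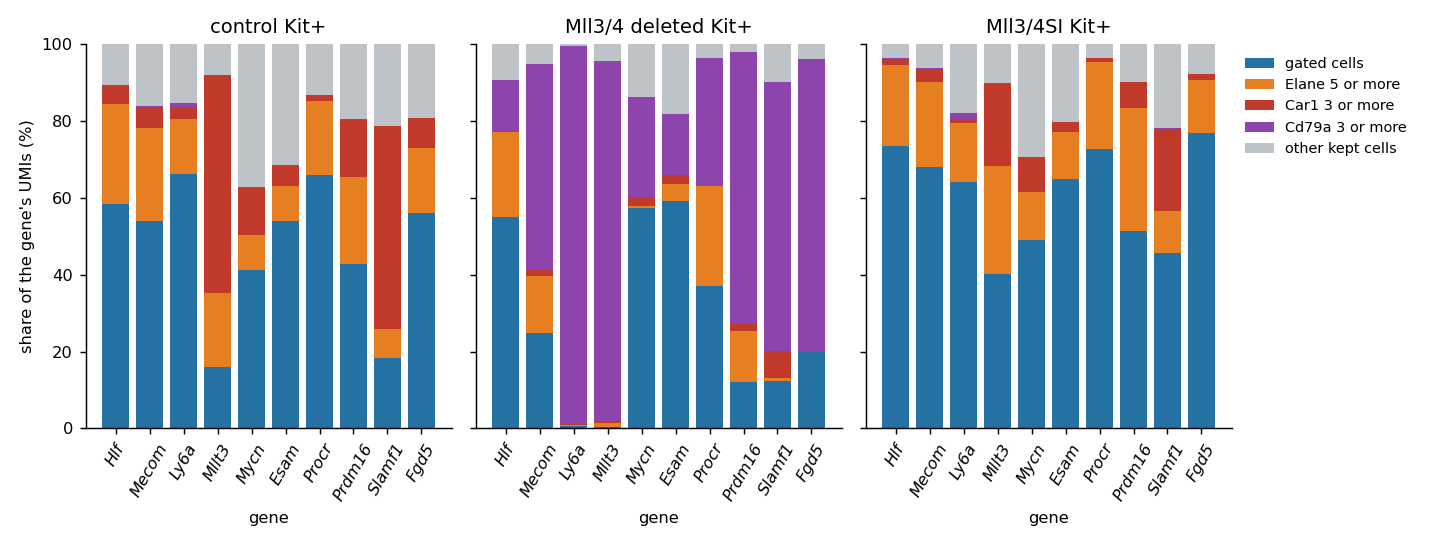
Share of each member's UMIs (vertical axis, percent) by kind of cell in the control Kit+, Mll3/4 deleted and Mll3/4SI libraries; colours are the gate, cells with Elane, Car1 or Cd79a UMIs at the stated number, and all other kept cells. In the deleted library 98.4% of Ly6a and 93.6% of Mllt3 UMIs came from cells with 3 or more Cd79a UMIs. Those cells were 91.6% of its kept cells.

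Deleted gated cells were few but still carried the stem-cell transcripts. Hlf, which encodes a leucine-zipper factor, stood at 112 CPM in control and 101 CPM in deleted gated cells, a ratio of 0.907 (95% interval 0.778 to 1.05). Mecom, a zinc-finger regulator needed for stem cell maintenance, stood at 106 and 163 CPM, a ratio of 1.54 (1.36 to 1.73). Among the Kit+ libraries the deleted one had the fewest gated cells and the highest Mecom level in them, from 305 UMIs in 146 cells. The 116 gated cells of the control B220lo library held Mecom at 41.8 CPM.

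Other members differed among themselves. Slamf1 stood at 7.42 CPM in control and 16.1 CPM in deleted gated cells, a ratio of 2.17 (1.42 to 3.21). Mycn, a MYC-family factor, stood at 27.0 and 50.9 CPM, a ratio of 1.89 (1.51 to 2.35). Procr, the endothelial protein C receptor, was lower, at 11.6 and 5.36 CPM, a ratio of 0.461 (0.218 to 0.861) from 10 UMIs in the deleted gate. Prdm16, a PR-domain factor, was also lower, at 11.5 and 6.43 CPM, a ratio of 0.561 (0.286 to 0.997) from 12 UMIs. These intervals lay on opposite sides of 1, with Mecom, Slamf1 and Mycn above it and Procr and Prdm16 below it. The intervals of Hlf, Mllt3, Fgd5, Ly6a and Esam included 1.

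The median log2 ratio of the 10 members was -0.18 in gated deleted cells, on a scale with 1 CPM added, which understates low genes. It turned to 0.06 at 2 or more Cd34 UMIs and to 0.12 with the gate set on thinned UMIs. Of 9 members with a mean of at least 5 CPM, 1 was past 2-fold higher, Slamf1, and 0 were past 2-fold lower. Over all 10274 genes at that level, 1.43% were past 2-fold higher and 2.55% lower, and their median was 0.03. At 146 cells, differences in Fgd5, with 5 UMIs in the deleted gate, were not detectable at this depth.

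The stricter gate kept part of this pattern. Slamf1 stood at 13.4 CPM in control and 33.5 CPM in deleted cells, a ratio of 2.51 (1.55 to 3.93), and Mycn at 43.2 and 88.5 CPM, a ratio of 2.05 (1.55 to 2.68). Mecom no longer stood apart, at 177 and 196 CPM, a ratio of 1.104 (0.923 to 1.31). Hlf was lower, at 194 and 139 CPM, a ratio of 0.719 (0.584 to 0.879). Procr, Prdm16 and Mllt3 had ratios of 0.426, 0.427 and 0.628, with intervals below 1. Here 2 of 10 members were past 2-fold higher and 2 lower, beside 2.40% and 7.23% of 10349 genes. Only 59 deleted cells entered this gate. Its limits were on unthinned UMIs, at median depths of 6108 UMIs in control and 11443 in deleted cells. It was not set on thinned UMIs. In it the erythroid list stood at 228 CPM (195 to 265) in deleted and 147 CPM (138 to 156) in control cells. Of 5 measured markers 2 were past 2-fold higher and 1 lower. In the wider gate the list stood at 128 and 119 CPM. The part of erythroid RNA in the level of Slamf1, most of whose control UMIs lay in Car1 cells, was not tested.

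A further transcript differed in the deleted gate. Flt3, the receptor of lymphoid-primed progenitors, stood at 114 CPM in control and 57.3 CPM in deleted gated cells, and at 117 and 28.2 CPM in the stricter gate. At 5000 UMIs, 32.7% (30.7 to 34.7) of gated control cells and 17.3% (11.3 to 24.8) of gated deleted cells had Flt3 without Slamf1. Cells with Slamf1 and no Flt3, the pattern of stem cell sorts, made up 3.15% (2.46 to 3.97) and 6.02% (2.63 to 11.5), and these intervals overlapped. Such transcript shares are not surface phenotypes. The sort pattern of Procr and Slamf1 without Cd48 was met by 1 of 2189 control cells. It could not be read in the 133 deleted cells at this depth, where a UMI of Procr was found in 5 cells and one of Slamf1 in 8.

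B-lineage transcripts were also higher in the deleted gate, at 257 CPM for the whole list against 111 CPM in control, with 10 of 10 markers detected. In SI gated cells the list stood at 64.4 CPM. Granulocyte and megakaryocyte markers were lower in the deleted gate, at 3088 and 258 CPM against 3883 and 523 CPM in control. Of 6 measured in each list 3 were past 2-fold lower, beside 2.55% of all genes. The part of B-lineage, granulocyte and megakaryocyte RNA in the member levels was not tested.

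**Figure D2:**
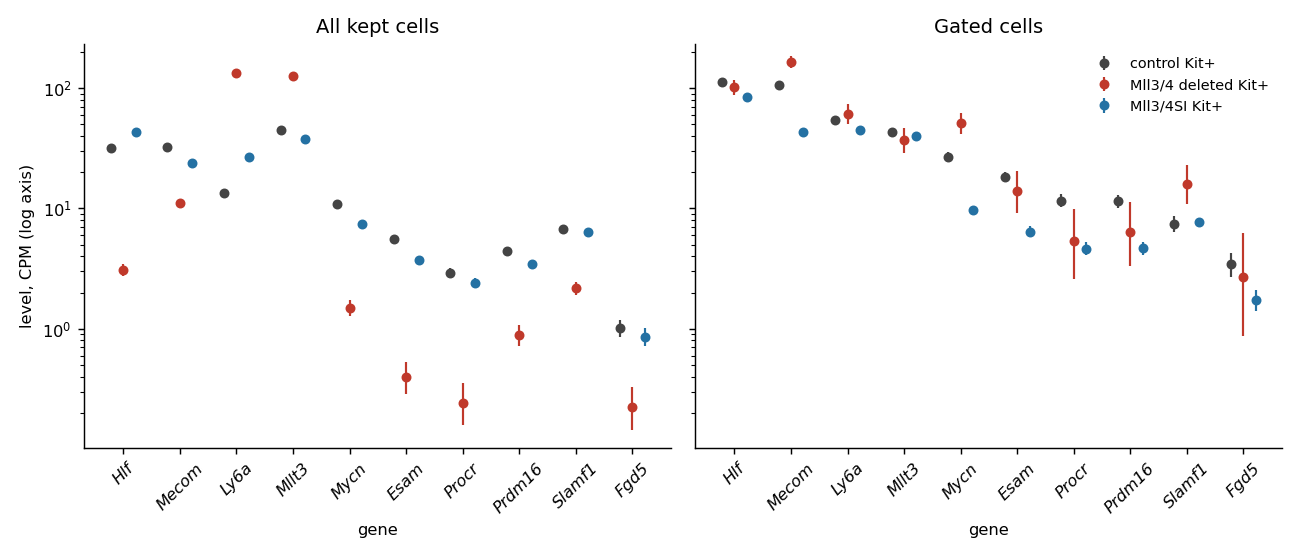
Level of each member (CPM, log axis) in all kept cells and in gated cells of the 3 Kit+ libraries, with exact 95% Poisson intervals that cover counting error only. In all kept cells the deleted library is lowest for 8 members and highest for Ly6a and Mllt3, while in the gate it is highest for Mecom, Mycn, Slamf1 and Ly6a.

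Gated SI cells had lower levels of most members. Mecom stood at 106 CPM in control and 43.1 CPM in SI gated cells, a ratio of 0.406 (0.383 to 0.429). Esam, an adhesion molecule, stood at 18.2 and 6.42 CPM (ratio 0.353, 0.306 to 0.407). Mycn stood at 27.0 and 9.61 CPM (ratio 0.357, 0.317 to 0.401). These members were lower in the SI gate than in either other Kit+ library. Procr, at 11.6 and 4.63 CPM, and Prdm16, at 11.5 and 4.67 CPM, had ratios of 0.398 and 0.407.

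The remaining members differed less. Hlf stood at 83.8 CPM in the SI gate, a ratio of 0.751 (0.716 to 0.788), Ly6a at 45.2 CPM against 53.9 CPM, and Mllt3 at 39.8 CPM against 43.1 CPM. Fgd5 stood at 3.43 and 1.74 CPM (ratio 0.507, 0.373 to 0.690). Slamf1 was level, at 7.42 and 7.65 CPM (ratio 1.03, 0.862 to 1.24). The intervals of 9 members lay below 1, and that of Slamf1 included it. The median log2 ratio was -0.92, and 5 of 9 members were past 2-fold lower and 0 higher, beside 1.51% and 1.33% of all 10193 genes.

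The composition of the SI gate differed. Of its 4952 cells, 2886 had 3 or more UMIs of Cpa3, against 460 of 2622 control cells and 15 of 146 deleted cells. The whole mast or basophil list summed to 1773 CPM in SI, 331 CPM in control and 342 CPM in deleted gated cells, with all 8 markers detected in control and SI. Megakaryocyte markers were lower beside it, with 523 CPM in control and 361 CPM in SI for the list. Of 6 measured 4 were past 2-fold lower, beside 1.51% of all genes. Erythroid markers were lower too, with 119 and 44.3 CPM and 4 of 5 past 2-fold lower. In the deleted gate the megakaryocyte list stood lower still, at 258 CPM, with 3 of 6 past 2-fold lower beside 2.55% of all genes. There Mecom, Mycn and Esam, which were also high in Pf4 cells, stood at 163, 50.9 and 13.9 CPM. The part of megakaryocyte and erythroid cells in the levels of these members was not tested. In gated cells below 3 Cpa3 UMIs, a split added after these values were seen, the median log2 ratio of the members was -0.33 in SI. There Hlf had a ratio of 1.09 (1.03 to 1.15) and Mecom one of 0.762 (0.716 to 0.811).

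The stricter gate gave similar ratios. Hlf stood at 194 CPM in control and 207 CPM in SI cells, a ratio of 1.07 (0.992 to 1.15), so its deficit in the wider gate was not seen. Mecom stood at 177 and 137 CPM (ratio 0.773, 0.712 to 0.839), and Procr at 25.2 and 14.1 CPM (ratio 0.558, 0.436 to 0.711). Mycn, Prdm16, Esam and Mllt3 had ratios of 0.618, 0.5996, 0.653 and 0.798, with intervals below 1. None of the 10 members was past 2-fold in either direction, beside 1.11% of 10416 genes higher and 0.586% lower. Their median log2 ratio was -0.38. For Mecom, Procr, Mycn, Prdm16 and Esam, then, the level in SI was below control in all 3 cell sets, and the ratio was nearer to 1 without the Cpa3 cells. Mllt3 was below control in all 3 sets too, but its ratio lay further from 1 without them, at 0.922 in the gate, 0.856 below 3 Cpa3 UMIs and 0.798 (0.698 to 0.912) in the stricter gate. The part of those cells in the ratios was not tested beyond this. Both mutant libraries were set against the same control library.

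Within the gated cells with 3 or more Cpa3 UMIs, Mecom stood at 64.5 CPM in control and 15.8 CPM in SI, a ratio of 0.245 (0.213 to 0.284). Hlf in the same cells had a ratio of 0.789 (0.700 to 0.892) and Slamf1 one of 1.92 (1.18 to 3.35). Outside the gate, Mecom had an SI ratio of 0.713 (0.650 to 0.782) in cells with 5 or more Elane UMIs and of 1.12 (0.916 to 1.35) in cells with 3 or more Car1 UMIs.

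Ly6a, whose transcription is known to respond to interferon, had a ratio that turned with the gate. It stood at 119 CPM in control and 170 CPM in SI cells of the stricter gate, a ratio of 1.43 (1.31 to 1.56), while it was lower in the wider gate. Interferon-response genes did not turn with it and were higher in SI in both gates. In the stricter gate 10 of 10 list genes lay above control and 6 were past 2-fold higher, with a median log2 ratio of 1.24, where 5644 of all 10416 genes lay above control and 1.11% were past 2-fold higher. In the wider gate 9 of 9 lay above control and 3 were past 2-fold higher, with a median of 0.91, beside 5282 of 10193 genes and 1.33%. Isg15 stood at 40.0 CPM in control and 121 CPM in SI cells, and Irf7 at 32.1 and 124 CPM. In deleted cells of the stricter gate 8 of 9 list genes lay below control and 3 were past 2-fold lower, where 5366 of all 10349 genes lay below control and 7.23% were past 2-fold lower, and Ly6a stood at 96.6 CPM (ratio 0.812, 0.629 to 1.03). In the wider deleted gate 7 of 9 list genes lay below control and 0 were past 2-fold, with a median of -0.21. Over all 10274 genes 4697 lay below control, 1.43% were past 2-fold higher and 2.55% lower. The list summed to 275 CPM in deleted and 280 CPM in control cells there. The part of interferon response in the Ly6a level was not tested.

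**Figure D3:**
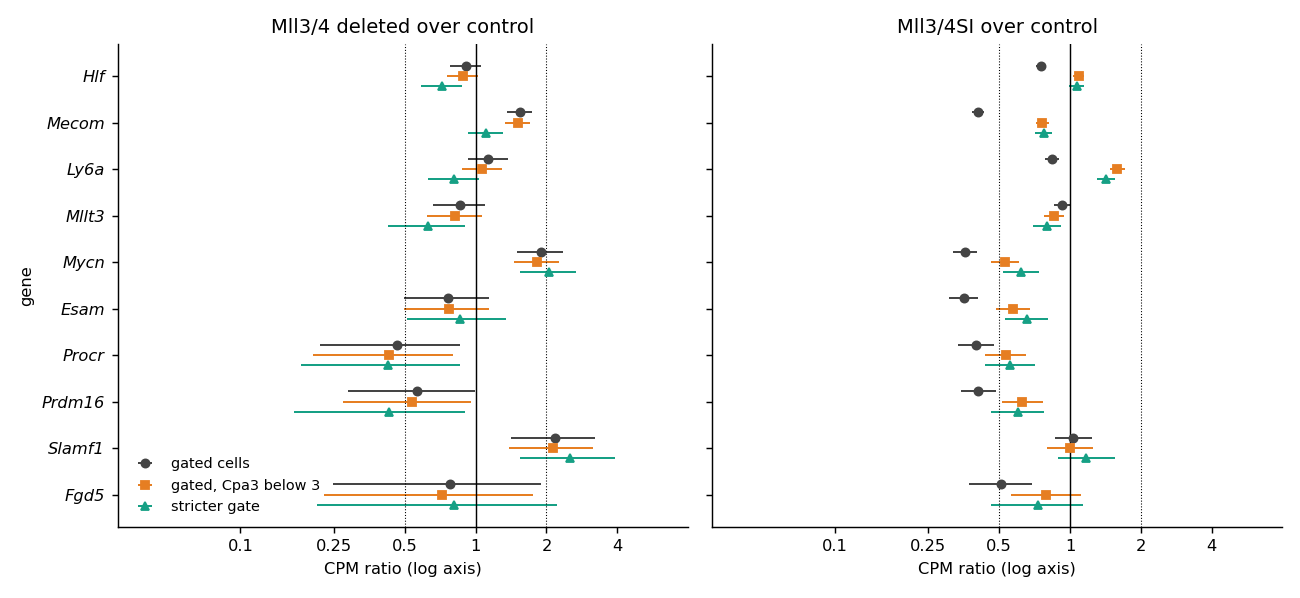
CPM ratio of each member to control (log axis, exact 95% intervals for counting error only) in deleted and SI cells for the gate, the gate without Cpa3 cells and the stricter gate; dotted lines mark 2-fold. Mecom, Mycn and Slamf1 lie right of 1 in deleted cells in all 3 cell sets, Mecom with an interval that includes 1 in the stricter gate. Mecom, Mycn, Esam, Procr, Prdm16, Mllt3 and Fgd5 lie left of 1 in SI cells in all 3. Of these, Mllt3 lies further from 1 in the narrower sets, and the Fgd5 intervals include 1 there.

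Other stem cell genes were read from a list of 26. In the deleted gate 0 of 22 measured were past 2-fold, beside the 1.43% higher and 2.55% lower over all genes, with a median log2 ratio of 0.11. Meis1, Gata2, Fli1 and Erg, all transcription factors of early blood cells, had ratios between 0.937 and 1.196.

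In the SI gate 2 of 21 list genes were past 2-fold lower and 0 higher, beside 1.51% and 1.33% of all genes, with a median of -0.26. Among them was Vwf, a clotting factor, at 14.8 CPM in control and 1.65 CPM in SI (ratio 0.111, 0.0877 to 0.140). In this gate 4 of 6 measured megakaryocyte markers were past 2-fold lower too. The part of megakaryocyte RNA in the Vwf level was not tested. In the stricter gate 1 of 24 genes of the stem cell list was past 2-fold lower, beside 0.586% of all genes. It was Cdkn1c, a cell-cycle inhibitor of quiescent stem cells, at 21.1 and 7.47 CPM (ratio 0.354, 0.257 to 0.481). Vwf was not counted as past 2-fold lower there. For deleted cells in the stricter gate 2 of 25 were past 2-fold lower: Nkx2-3, with 2 UMIs there (ratio 0.194, 0.0232 to 0.721), and Cd27 (ratio 0.443). That count is near the background of 7.23% lower in this comparison. These genes were named after their values were seen.

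Members were often found together in one cell. At 5000 UMIs per cell, 410 of 2189 gated control cells, 18.7% (17.1 to 20.4), had UMIs of 3 or more members. The share was 14.3% (8.83 to 21.4) in deleted cells, 19 of 133, and 9.26% (8.44 to 10.1) in SI cells, 421 of 4544. Thinning left out 433 control, 13 deleted and 408 SI gated cells. The unthinned shares were 33.0%, 47.3% and 20.6%, in libraries whose gated cells differed in depth, with medians of 7787, 11625 and 10521.5 UMIs.

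Left without Cpa3 cells, the shares came closer, with 21.3% (19.4 to 23.3) of control cells, 15.97% (9.90 to 23.8) of deleted cells and 18.7% (17.0 to 20.6) of SI cells. In the stricter gate they were 35.8% (32.4 to 39.3), 25.9% (15.0 to 39.7) and 32.1% (28.8 to 35.5), and the intervals overlapped. Among all kept cells, where composition enters, 6.12%, 0.638% and 5.02% had 3 or more members.

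**Figure D4:**
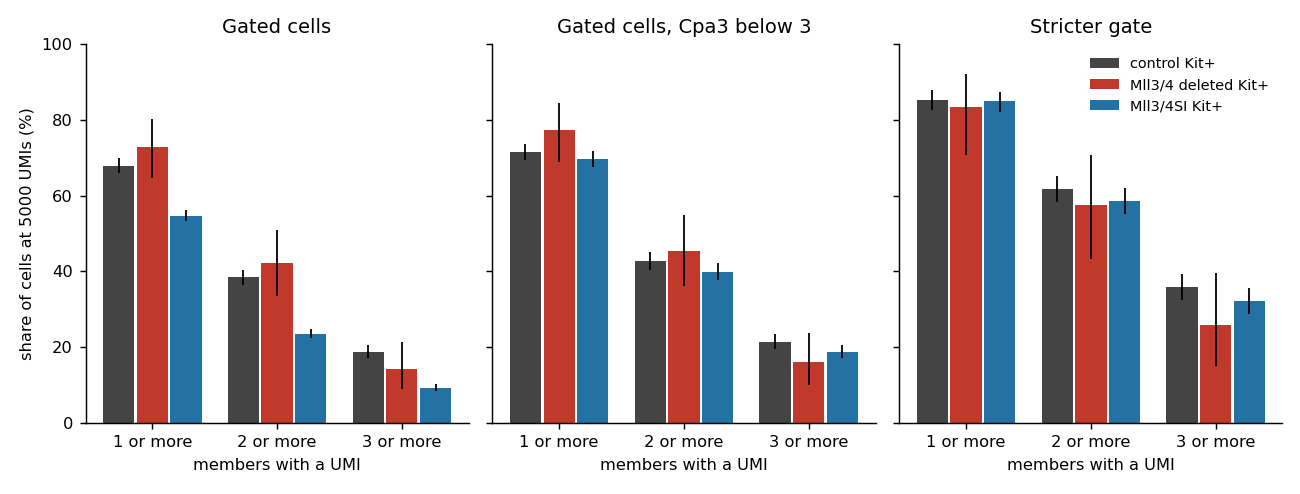
Share of cells (percent, with exact 95% binomial intervals) holding UMIs of at least 1, 2 or 3 members after each cell was thinned to 5000 UMIs, in 3 cell sets of the Kit+ libraries. In the gate 9.26% of SI cells hold 3 or more against 18.7% of control cells, and in the stricter gate 32.1% against 35.8%.

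Most pairs of members were met together more often than their separate shares would give in the control and SI gates. Of the 45 pairs, 38 had an expected number of at least 5 cells in the control gate, and 36 of these were met more often than expected. The median over the 38 was 1.56 times, and 27 had an interval above 1, as did 21 of 33 in SI. Procr and Ly6a, both surface markers, met in 48 cells against 16.4 expected. Hlf and Mecom met in 346 cells against 243. Hlf and Slamf1 met in 19 cells against 27.2 (0.420 to 1.09 times the expected number) in control and in 68 against 56.0 in SI, and no pair had an interval below 1. In SI gated cells the median over 33 pairs was 1.67 times, with Procr and Ly6a in 44 cells against 14.3 and Hlf and Mecom in 374 against 210.

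The deleted gate allowed 7 pairs, with a median of 1.24 times and 0 intervals above 1, and Hlf and Mecom met in 24 cells against 20.6. In the stricter gate the medians were 1.24 in control, 1.17 in deleted and 1.21 in SI cells. Intervals lay above 1 there for 6 of 38, 0 of 5 and 7 of 34 pairs. The part of the gate's mixture of cells in this joint detection was not tested, and cells within a library share their source.

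The genes whose transcripts went most closely with the members were read in control gated cells. Over 410 cells with 3 or more members and 703 with none, both at 5000 UMIs, the 10 leading genes included Ltb, Samd12, Trpc6, Myl10, Ldhb, Hacd4, H2-Eb1, Prkg1 and Pglyrp2. Ltb, a lymphotoxin subunit, stood at 93.7 CPM in the first and 9.96 CPM in the second, a ratio of 9.41 (6.53 to 13.9). Of 3609 genes with at least 100 UMIs in the first cells, where the partner genes were picked, 71 were past 2-fold higher and 13 lower. Of 10303 genes with a mean of at least 5 CPM, 502 were past 2-fold higher and 112 lower. In SI gated cells, which were not used to pick them, all 10 were past 2-fold higher in cells with 3 or more members. So were 94 of 3798 genes with at least 100 UMIs in those cells and 567 of 10300 with a mean of at least 5 CPM. Myl10, a myosin light chain, showed the widest gap there, with 246 and 8.43 CPM, a ratio of 29.2 (23.2 to 37.1), against 5.25 in control. In the same SI cells all 6 measured mast or basophil genes were past 2-fold lower in cells with 3 or more members. The part of Cpa3 cells in the partner ratios was not tested. The deleted gate held 19 cells of the first kind and 36 of the second, with 1 to 8 UMIs of each gene in the first, and no order was read from them.

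Over all kept cells the deleted library had little of most members. Hlf stood at 31.6 CPM in control and 3.09 CPM in deleted cells, a ratio of 0.0977 (0.0873 to 0.109). Esam, Procr and Mycn had ratios of 0.0709, 0.0831 and 0.138. Those values go with the gate, whose share of kept cells was 1.06% against 23.7%. In kept cells below 3 Cd79a UMIs the ratios of Hlf, Esam, Procr and Mycn were 0.702, 0.495, 0.460 and 0.850. Mecom turned from a ratio of 0.338 over all kept cells to 1.30 in them. Fewer cells of a kind and less RNA per cell cannot be told apart in such sums.

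Mllt3 and Ly6a went the other way. Mllt3 stood at 44.9 CPM in control and 125 CPM in deleted kept cells, a ratio of 2.78 (2.70 to 2.87), and Ly6a at 13.4 and 134 CPM, a ratio of 9.96 (9.49 to 10.5). Of 5 members with a mean of at least 5 CPM, 2 were past 2-fold higher and 3 lower, beside 11.3% and 8.77% of 10390 genes. In SI kept cells 0 of 6 were past 2-fold, beside 1.62% higher and 0.867% lower of 10029 genes. There Hlf stood at 43.1 CPM (ratio 1.36, 1.31 to 1.41) and Ly6a at 26.6 CPM (ratio 1.98, 1.87 to 2.09).

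Cells with 3 or more Cd79a UMIs made up 12591 of the 13747 deleted kept cells, 91.6%. They carried 98.4% of Ly6a and 93.6% of Mllt3 UMIs. The control Kit+ library had only 47 such cells, so the control B220lo library, with 10839, served as the reference. Of the members, 2 had a mean of at least 5 CPM, Ly6a and Mllt3, and both were past 2-fold higher, beside 10.5% of 10374 genes higher and 11% lower. A count of 2 members at this background says little about the group. The sorts differ, and 23.3% of the deleted cells against 70.0% of the reference cells had a heavy-chain contig, so the cells also differed in how many had an assembled receptor chain.

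Ly6a had a level of 150 CPM in deleted against 37.0 CPM in reference cells, a ratio of 4.04 (3.86 to 4.24). Mllt3 stood at 133 and 49.7 CPM, a ratio of 2.67 (2.56 to 2.79). Mecom stood at 6.70 and 0.241 CPM, a ratio of 27.8 (16.1 to 52.4), from 656 and 13 UMIs, 8 of the 13 in 1 cell. The few Cd79a cells of the other Kit+ libraries were not below the deleted cells in Mecom: it stood at 9.51 CPM (1.96 to 27.8) in control Kit+, from 3 UMIs in 47 cells, and at 20.7 CPM (6.72 to 48.3) in SI, from 5 UMIs in 28 cells. Ly6a stood at 57.1 CPM (33.8 to 90.2) and 269 CPM (208 to 343) in those cells, and Mllt3 at 34.9 CPM (17.4 to 62.4) and 45.6 CPM (22.7 to 81.5). Against these 47 control cells of the same sort, then, Ly6a and Mllt3 were higher in deleted cells and a Mecom difference was not detectable at this depth. The control Kit+ and SI cells were not like the deleted ones. A heavy-chain contig was found in 55.3% and 75.0% of them, against 23.3% of deleted cells. For 9 B-lineage markers other than Cd79a the sums were 5607 and 3251 CPM, against 11698 CPM in deleted cells. Of the deleted cells 2.72% had a Mecom UMI, and of the reference cells 0.0461%, with median depths of 6458 and 3077 UMIs. At 5000 UMIs the shares were 2.02% (1.73 to 2.35) of 8210 cells and 0.0730% (0.00884 to 0.263) of 2740 cells. In the deleted library Mecom stood at 19.7 CPM in cells with 5 or more Elane UMIs and at 10.996 CPM over all kept cells. Over all kept cells of control Kit+ and SI it stood at 32.6 and 23.9 CPM. The part of free RNA in the Mecom UMIs of Cd79a cells was not tested.

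Hlf stood at 0.470 and 0.427 CPM, a ratio of 1.101 (0.654 to 1.90), but its value changed with the cells taken: with suspected doublets kept the ratio was 2.27 (1.46 to 3.66), and in cells without UMIs of other lineages 0.604 (0.151 to 2.21). In deleted gated cells Hlf and Mecom stood at 101 and 163 CPM and in deleted Cd79a cells at 0.470 and 6.70 CPM. In deleted cells with 5 or more Elane UMIs they stood at 8.32 and 19.7 CPM. The source of the UMIs in Cd79a cells was not tested.

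The scarcer members depended on which cells were compared. Prdm16 stood at 0.715 and 0.315 CPM (ratio 2.27, 1.32 to 4.11), but at a ratio of 0.805 (0.441 to 1.57) in cells without a heavy-chain contig, with intervals that also included 1 in cells with Vpreb1, in cells with Rag1 and at a doublet score of 0.15. Slamf1 had a ratio of 0.637 (0.507 to 0.8004) in all such cells and of 2.15 (1.21 to 4.16) in those with Rag1, a recombinase of developing lymphocytes. Fgd5 had 19 UMIs against 2 (ratio 5.23, 1.26 to 46.3), with an interval that included 1 in 5 of the 7 subsets and doublet settings. Procr had 9 against 19 (ratio 0.261, 0.104 to 0.605). In the 12503 and 2857 cells with Vpreb1 it had 9 against 2, a ratio of 1.09 (0.225 to 10.3). Mycn was lower in the deleted cells, with a ratio of 0.282 and one between 0.192 and 0.389 in the 7 subsets and doublet settings.

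Cells with a heavy-chain contig, which have assembled a B-cell receptor gene, held Mecom at 9.86 CPM in the deleted library, from 229 UMIs in 2929 cells, and at 0.104 CPM in the reference. Those without one held it at 5.72 and 0.578 CPM. In cells that also had Vpreb1, a surrogate light chain of early B cells, Mecom stood at 6.52 CPM in 12503 deleted cells and at 0.0424 CPM, from 1 UMI, in 2857 reference cells. Among cells without a UMI of Cd34, Mpo, Elane, Pf4 or Gata2 it stood at 5.49 and 0.215 CPM. Removing more suspected doublets, at a Scrublet score of 0.15, gave 7.26 and 0.2198 CPM. These subsets were chosen after the values were seen, and Mecom was higher in the deleted cells in each of them.

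Ly6a in the same Vpreb1 cells stood at 150 and 15.6 CPM and Mllt3 at 132 and 62.0 CPM. Over all Cd79a cells 8 of 8 measured interferon-response genes lay above the reference in deleted cells, beside 5147 of 10374 genes. Of the 8, 5 were past 2-fold higher, beside 10.5% of all genes. Their part in the Ly6a ratio was not tested. Deleted Cd79a cells with a Ly6a UMI at 2000 UMIs had interferon-response transcripts at 672 CPM in sum, against 372 CPM in those without. They had cell-cycle transcripts at 1284 and 2157 CPM. The reference cells showed the same order for these lists, with interferon-response transcripts at 449 and 252 CPM and cell-cycle transcripts at 789 and 1361 CPM. B-lineage transcripts went opposite ways, at 19744 CPM in deleted cells with a Ly6a UMI and 17249 CPM in those without, against 10112 and 13662 CPM in the reference.

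**Figure D5:**
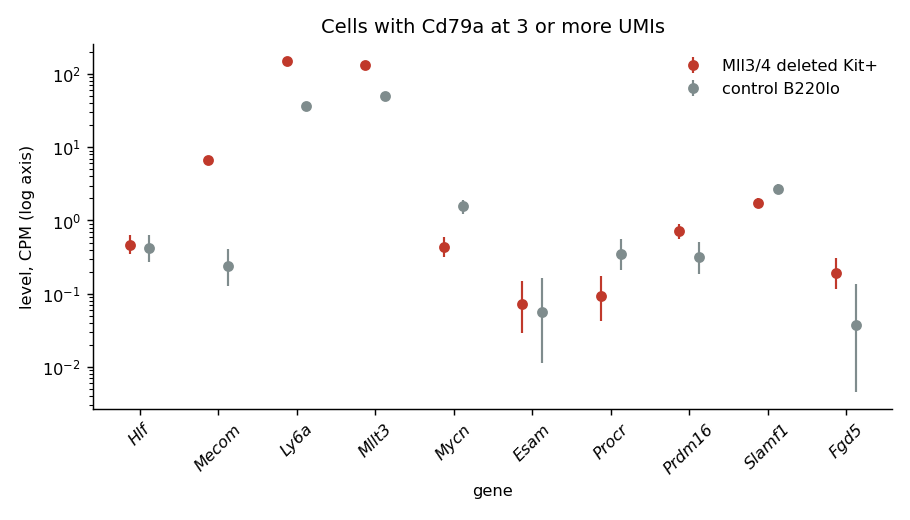
Level of each member (CPM, log axis, exact 95% Poisson intervals) in cells with 3 or more Cd79a UMIs of the Mll3/4 deleted Kit+ and control B220lo libraries. Mecom, Ly6a and Mllt3 lie higher in the deleted cells and Mycn lower. Prdm16 lies higher and Procr and Slamf1 lower here but not in every subset of these cells, and the intervals of Hlf, Esam and Fgd5 overlap.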

How the data were processed

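Single-cell RNA was measured in 4 libraries. The deposited values are raw UMI counts per gene and cell, with assembled receptor contigs and their read and UMI counts beside them. The submitters' processing notes name Cell Ranger 7.1.0 and mm10. A cell was kept if it had 1000 or more UMIs from 500 or more genes and no more than 10% of its UMIs from mitochondrial genes, and cells with a Scrublet score of 0.25 or more were removed. That score was set after the scores were seen, since Scrublet's own threshold made 1166 calls in the control Kit+ library and 0, 1 and 0 in the deleted, SI and B220lo libraries. Total deposited UMIs per library ran from 85445426 to 166327773. UMIs were summed over cells, and CPM, exact 95% Poisson intervals, exact ratio intervals and Clopper-Pearson intervals were computed (scanpy 1.11.5, scipy 1.17.1, numpy 2.4.6, pandas 2.3.3). Past 2-fold refers to log2 ratios with 1 CPM added, over genes with a mean of at least 5 CPM. Limits for a count of 0 use 3 counts. The code was tested on simulated data. Partner genes were the 10 highest ratios among genes with at least 100 UMIs in the cells with 3 or more members. Mitochondrial, ribosomal, receptor-segment, unnamed and sex-linked genes were left out. All members were named. Some other genes counted in the lists are not reported here by name. The members and lists were chosen with earlier results of these data known. The split on Cpa3 and the subsets of Cd79a cells were added after seeing the data. Alternatives covered cell filters, the gate, the thinning depth, the CPM total and the pseudocount.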

Additional observations from a re-analysis of the deposited data

Results flagged for a closer look

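In cells with 3 or more Cd79a UMIs, Mecom, Ly6a and Mllt3 stood above their level in the control B220lo library, which the comparisons between Kit+ libraries do not use. They are given here because the log2 ratio with 1 CPM added was at least 1 and the ratio interval lay above 1. Of the other members, Prdm16 and Fgd5, both under 1 CPM, had intervals above 1 and Slamf1, Mycn and Procr below 1. Ly6a and Mllt3 had a mean of at least 5 CPM, and 10.5% of all such genes were past 2-fold higher. Mecom lay under that mean, so this share does not apply to it. The CPM ratio of deleted to control B220lo cells was 27.8 for Mecom, 4.04 for Ly6a and 2.67 for Mllt3. Over the 7 subsets and doublet settings tried, the Mecom ratio ran from 9.90 in cells without a heavy-chain contig, where 8 of the 9 reference UMIs lay in 1 cell, to 154 in cells with Vpreb1, where the reference held 1 Mecom UMI. The Ly6a ratio ran from 3.37 with suspected doublets kept to 9.62 in cells with Vpreb1, and the Mllt3 ratio from 2.13 in cells with Vpreb1 to 2.87 in cells with a contig. In the Cd79a cells of the same sort, Mecom stood at 9.51 CPM in control Kit+, from 3 UMIs, and 20.7 CPM in SI, from 5 UMIs. It stood at 6.70 CPM in deleted cells, so its higher level was not seen against these few cells. They were not like the deleted ones, with a heavy-chain contig in 55.3% and 75.0% against 23.3%. Ly6a stood at 57.1 and 269 CPM in the control Kit+ and SI cells against 150 CPM, and Mllt3 at 34.9 and 45.6 CPM against 133 CPM. Each library is 1 sample and the sorts of the deleted and B220lo cells differ, so sort and genotype cannot be told apart in these ratios.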

How the results depend on the processing

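No paired analysis was possible because each group has 1 library. Of 71 alternative values for the summaries, 42 lay inside the counting interval of the reported result and 29 outside it, and 69 kept their sign. The others were the deleted median in the gate, -0.18, at 0.06 with 2 or more Cd34 UMIs and 0.12 with the gate set on thinned UMIs, so its sign is not settled. Of 380 alternative values for single members, 121 lay outside the counting interval, 365 kept their sign, and 1 of those that changed sign had been past 2-fold. The ratio intervals leave out the added 1 CPM, so a value outside one need not have moved. The reported deleted median of -1.50 over all kept cells itself lay outside its interval. Over all kept cells the deleted median of -1.50 became -1.50 over all deposited barcodes and with the stricter cell filter, -1.48 with doublets kept, -1.62 with a total free of ribosomal, mitochondrial and immunoglobulin UMIs, -0.69 with a pseudocount of 5 CPM and -0.37 in cells below 3 Cd79a UMIs. In those last cells Mecom turned from lower to higher, at a log2 ratio of 0.37. The SI median in the gate, -0.92, became -0.77 at 2 or more Cd34 UMIs, -0.38 in the stricter gate, -0.73 with the gate set on thinned UMIs, -0.33 below 3 Cpa3 UMIs and -0.58 with a pseudocount of 5 CPM. Over all kept cells the SI median of -0.23 became -0.50 with means of single-cell CPM and -0.13 with a pseudocount of 5 CPM. The share of gated cells with 3 or more members (control, deleted, SI) was 35.8%, 25.9% and 32.1% in the stricter gate. It was 6.002%, 6.29% and 2.17% at 2000 UMIs and 33.0%, 47.3% and 20.6% unthinned. At 5000 UMIs the intervals of control and deleted cells overlapped, and unthinned their median depths differed, at 7787 and 11625 UMIs. The order of control and deleted cells is therefore not settled. With 2 or more members the share was 38.4%, 42.1% and 23.5%. Without Ly6a it was 14.0% in control and 5.57% in SI, and below 3 Cpa3 UMIs 21.3% and 18.7%. The number of genes past 2-fold followed the minimum level: 409 in the deleted gate became 111 at 20 CPM and 875 at 1 CPM, and 290 in the SI gate became 113 and 483. Over all kept cells 2084 became 1093 and 3069 in deleted cells, and 249 became 112 and 414 in SI cells. The number of SI gated members past 2-fold went from 5 to 1 at 20 CPM. The 146 deleted gated cells limit Procr, Fgd5, Prdm16 and Esam to 5 to 26 UMIs each. The cause of these movements was not tested.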

Other observations

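Further gene groups were compared between gated cells with 3 or more members and those with none. In control, 6 of 8 measured interferon-response genes were past 2-fold higher in the first, with a median log2 ratio of 1.18, and in SI cells 6 of 10 were, with a median of 1.07. None of 10 cell-cycle genes was past 2-fold in either library, with medians of -0.34 and -0.33. All 6 measured mast or basophil genes were past 2-fold lower in both, with medians of -2.24 and -2.92, and 5 of 6 granulocyte genes were in control. Of 3 measured endothelial markers, 2 were past 2-fold higher in both, Emcn and Tie1, with list medians of 1.05 and 1.99, while Cdh5 had 0 UMIs in these cells of either library. Over all genes with a mean of at least 5 CPM, 4.87% were past 2-fold higher and 1.09% lower in control, and 5.50% and 1.55% in SI. In the deleted gate, with 19 and 36 cells, these shares were 18.8% and 19.8%, so counts there say little: 2 of 8 interferon-response genes were past 2-fold higher and 3 lower, with a median of -0.11, and 5 of 10 cell-cycle genes were past 2-fold lower, with a median of -0.97. Cells with 3 or more members were chosen on the members' own UMIs, and no test was made. The members include Ly6a, whose transcription is known to respond to interferon. The part of that choice in the interferon-response values was not tested.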
